A study of Mus musculus with 24 samples.

Results

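RAW-Blue cells are RAW 264.7 mouse macrophages, a transformed line, with a stably integrated secreted phosphatase reporter for NF-kB and AP-1. They were compared here after exposure to SWNT/CpG, single-walled carbon nanotubes dispersed in the CpG-containing oligonucleotide CpG-28 (10 µg/mL of nanotubes and of DNA), and after water alone (Untreated). The comparison rests on 4 libraries, 2 per group, taken by their labels from the 24 libraries of 2 mouse cell lines in the study. The other RAW-Blue groups, also of 2 libraries, were CpG+SWNT/LP (free CpG-28 with nanotubes coated in lipid-PEG, 10 µg/mL of each ingredient), CpG (10 µg/mL of free CpG-28) and SWNT/LP (10 µg/mL each of nanotubes and lipid-PEG). All RAW-Blue cells were plated inside culture-insert chambers, adhered for 24 h, were treated for 47 to 50 h and belong to run 2. Neither lipid-PEG alone nor DNA lacking CpG is among these groups. Since the labels leave it unsaid whether replicates were separate cultures, the spread behind every p-value may be technical.

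Unmethylated CpG DNA is sensed in endosomes by the receptor TLR9, which needs the chaperone UNC93B1 to get there and signals through the adaptor MYD88. In macrophages this pathway activates NF-kB and AP-1, which drive cytokine, chemokine and inflammatory enzyme genes. Interferon-stimulated genes respond to the type I interferon that activated cells can release, and many of them encode antiviral proteins or sensors of nucleic acids.

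The 10 RAW-Blue libraries held 17186874 to 20256833 counts, with 17529218 and 20145859 in SWNT/CpG and 17186874 and 18713895 in Untreated. On the first principal component, with 50.6% of the variance, the SWNT/CpG libraries lay at one end and the Untreated libraries at the other. The 2 Untreated libraries differed from each other more than other replicates did. Their log2 difference had an SD of 0.408 over 11460 genes and a Spearman correlation with GC content of 0.524, against SDs of 0.208 to 0.262 and correlations of -0.239 to 0.0759 within the treated groups. Each difference between SWNT/CpG and Untreated below was therefore also computed against either Untreated library alone. A call that also passed in the same direction in both such fits is termed a call against each Untreated library. Such a fit holds 1 Untreated library, so its spread comes from the other groups and leaves out that of the Untreated pair. Macrophage markers were present in all 4 libraries, with 4 of 26 at no count. Together they summed to 9153 and 8882 CPM (counts scaled to the same library total) in SWNT/CpG and 9327 and 8742 CPM in Untreated. Single markers did change: of 21 tested, 5 were called higher (23.8%) and 7 lower (33.3%), beside 12.8% and 10.4% of all tested genes. Csf1r, the receptor that macrophages need for survival, had 1073 and 1118 CPM in SWNT/CpG and 1426 and 1309 CPM in Untreated (-0.32 ± 0.07, a fall not called without SWNT/CpG replicate 1, adjusted p = 0.0888). Actb had 5942 and 5836 CPM in SWNT/CpG and 5645 and 4246 CPM in Untreated. Gapdh had 6.24 and 6.60 CPM in SWNT/CpG and 8.39 and 8.21 CPM in Untreated. Neither was called. By the authors' RPKM (level per transcript length) in SWNT/CpG, Gapdh ranked 8077, while Pkm and Aldoa, also glycolysis genes, ranked 6 and 10. The counts of Gapdh are therefore doubtful as a measure of its level, and the reason was not tested. Actb was called higher without Untreated replicate 1 (0.47, adjusted p = 3.18e-05) and after the GC correction described next (0.31, adjusted p = 0.0213). Markers of lymphocytes summed to 6.53 and 7.30 CPM in SWNT/CpG and 6.05 and 5.05 CPM in Untreated, and 10 of 15 had no count in any of the 4 libraries. Those of neutrophils and mast cells summed to 2.02 and 2.20 CPM in SWNT/CpG and 0.856 and 0.526 CPM in Untreated, with 4 of 15 at no count. Dendritic cell markers summed to 105 and 111 CPM in SWNT/CpG and 63.6 and 67.2 CPM in Untreated (3 of 12 at no count), and fibroblast, glial and vessel markers to 119 and 122 CPM in SWNT/CpG and 155 and 143 CPM in Untreated (4 of 18 at no count); their part in the results was not tested. In such bulk RNA, fewer cells of a type and less RNA per cell cannot be told apart.

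SWNT/CpG cells differed from Untreated cells in a broad set of genes, with more rises than falls past 2-fold. Of 11514 genes tested, 1472 (12.8%) were higher and 1201 (10.4%) were lower in SWNT/CpG than in Untreated cells, 23.2% in either direction, at an adjusted p under 0.05 (edgeR quasi-likelihood test), which is what "called", "rose" and "fell" mean throughout. Changes past 2-fold were 449 higher (3.9%) and 129 lower (1.12%). Against each Untreated library, 1272 genes (11%) stayed higher and 1010 (8.77%) stayed lower. A loess correction of every library for GC content gave 1765 higher (15.3%) and 1433 lower (12.4%). Leaving out SWNT/CpG replicate 1 or 2 left 1200 and 1529 calls in all, and leaving out Untreated replicate 1 or 2 gave 3720 and 5924. No called gene changed sign in any of these fits. Counts of list members called against Untreated in the fit of all 10 libraries are to be read beside the shares of all tested genes, 12.8% higher and 10.4% lower. With 1 library left out, list counts shift partly because calls over all tested genes shift. Those became fewer without a SWNT/CpG library and more without an Untreated one. Counts between treatments are to be read beside the shares given with those tests. In the text, a value after a gene is its log2 fold change, SWNT/CpG over Untreated, ± standard error, unless said otherwise.

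**Figure D1:**
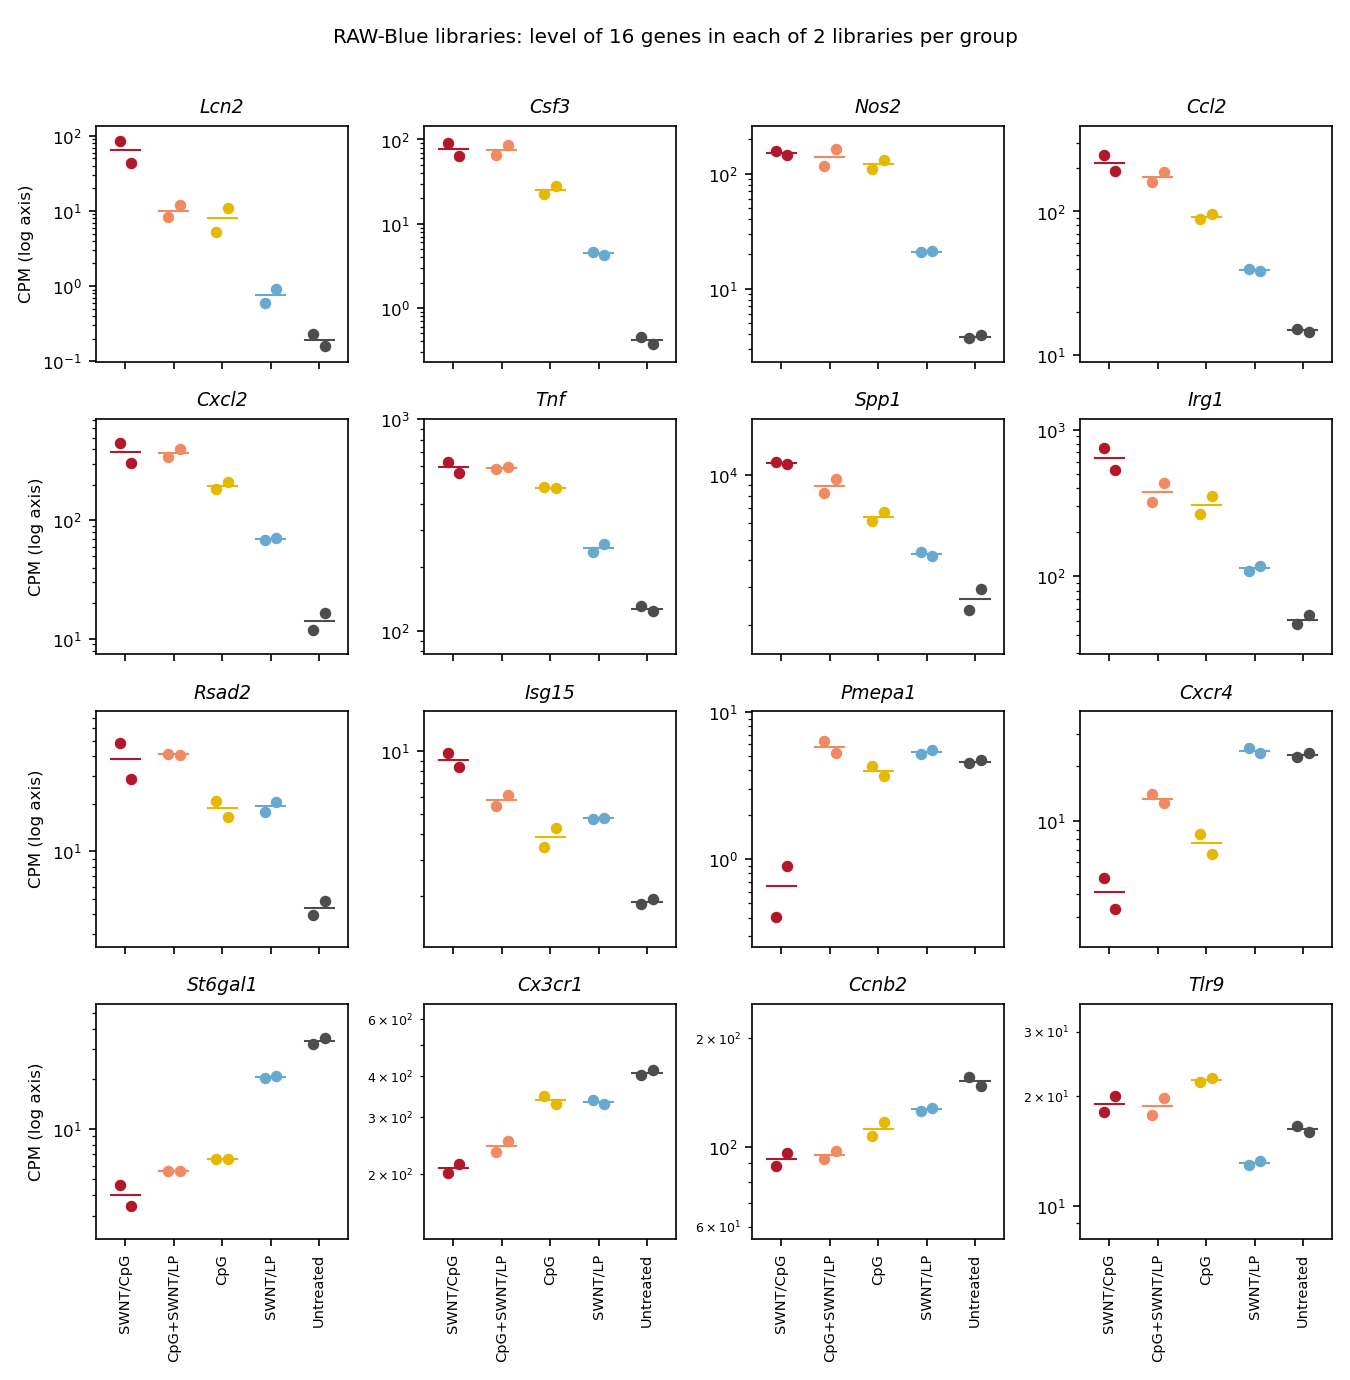
Level of 16 genes in each RAW-Blue library, in CPM on a log axis; points are libraries (2 per group) and lines are group means, with SWNT/CpG on the left and Untreated on the right. For Lcn2 the SWNT/CpG libraries stand at 84.9 and 44.2 CPM above all 8 others, and for Pmepa1 they stand at 0.405 and 0.900 CPM below all 8 others.

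Of the genes named for the size of their rise, the first 3 encode secreted or effector proteins of innate immunity. Lcn2, which encodes the siderophore-binding lipocalin that withholds iron from bacteria, had 84.9 and 44.2 CPM in SWNT/CpG cells, against 0.228 and 0.158 CPM in Untreated cells (8.34 ± 0.65, adjusted p = 5.82e-05). Csf3, the granulocyte colony-stimulating factor gene, had 90.6 and 64.1 CPM in SWNT/CpG against 0.456 and 0.368 CPM in Untreated (7.53 ± 0.34, adjusted p = 3.9e-06). Nos2, the inducible nitric oxide synthase, had 157 and 144 CPM in SWNT/CpG against 3.71 and 3.95 CPM in Untreated (5.29 ± 0.19, adjusted p = 7.56e-07). In all of them both SWNT/CpG libraries lay far above both Untreated libraries. Lcn2 and Csf3 passed the low-count filter only through treated libraries, so they could only be called higher. The replicates were tight for Nos2 and nearly 2-fold apart for Lcn2 in SWNT/CpG. Per transcript length, in the RPKM that the authors deposited, Spp1 was the highest of all genes in SWNT/CpG cells, at 4294 and 4013 RPKM against 892 and 1087 RPKM in Untreated cells. Spp1 encodes osteopontin, a secreted adhesive phosphoprotein, and rose by 2.09 ± 0.12 on the log2 scale (adjusted p = 5.91e-06). The chemokine gene Ccl3 ranked 8 by the same measure, at 945 and 785 RPKM in SWNT/CpG against 211 and 193 RPKM in Untreated. Spp1 was already among the more abundant transcripts in Untreated cells, whereas Lcn2 was barely detected there.

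Most tested chemokine genes rose. Of 12 tested CC and CXC chemokine genes 9 rose and 1 fell, both against each Untreated library as well, with a median log2 fold change of 1.94 beside 0.00 over all tested genes and with shares of 75% and 8.33% beside 12.8% and 10.4% of all tested genes. Leaving out any 1 of the 4 libraries left 8 to 10 higher. The monocyte attractants Ccl2 (3.88 ± 0.14) and Ccl7 (5.13 ± 0.30) rose most among CC chemokines. Ccl2 had 246 and 192 CPM in SWNT/CpG and 15.3 and 14.5 CPM in Untreated, and Ccl7 26.2 and 20.4 CPM in SWNT/CpG and 0.856 and 0.474 CPM in Untreated. The neutrophil attractant Cxcl2 had 452 and 304 CPM in SWNT/CpG against 11.9 and 16.7 CPM in Untreated (4.72 ± 0.23, adjusted p = 6.21e-06). For Ccl2, Ccl7 and Cxcl2 the SWNT/CpG libraries differed from each other by less than the gap to Untreated. Ccl7 was under the level of the low-count filter in Untreated replicate 2 and needed treated libraries to pass it. Ccl3 (2.12 ± 0.10), Ccl4 (2.20 ± 0.11) and Ccl5 (2.45 ± 0.15), attractants of monocytes and T cells, rose as well. Cxcl14 was the one that fell, with 4.80 and 5.35 CPM in SWNT/CpG against 14 and 14.5 CPM in Untreated (-1.49 ± 0.14, adjusted p = 8.07e-05). Cxcl16, a transmembrane scavenger and chemokine, was not called (12.8 and 11.7 CPM in SWNT/CpG against 12.8 and 12.9 CPM in Untreated).

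Of 20 tested cytokine genes 14 rose and 0 fell, 12 of them against each Untreated library, with a median of 1.6. The count was 9 without SWNT/CpG replicate 1. Tnf, a principal early macrophage cytokine, had 630.4 and 556 CPM in SWNT/CpG and 131 and 124 CPM in Untreated (2.22 ± 0.08, adjusted p = 6.53e-07). Il1rn, which encodes the antagonist of the interleukin 1 receptor, had 228 and 197 CPM in SWNT/CpG against 63.1 and 58.3 CPM in Untreated (1.81 ± 0.10). Osm (1.83 ± 0.16), an interleukin 6 family cytokine, and Ebi3 (1.35 ± 0.11), a subunit of interleukins 27 and 35, rose too. Interleukin 1 beta itself stayed near the limit of detection. Il1b had 22 and 14 counts in SWNT/CpG libraries against 1 and 1 in Untreated libraries, a ratio of 17.6 with a 95% counting interval of 4.54 to 151. Csf2, the granulocyte and macrophage colony-stimulating factor gene, had 39 and 39 counts in SWNT/CpG against 2 and 1 in Untreated, a ratio of 25.5 with an interval of 8.4 to 126. Both intervals cover counting error only. Both genes were thus raised but remained far less abundant than Tnf or Il1rn. Like Il33 (15 and 15 counts in SWNT/CpG against 0 and 2 in Untreated), they passed the low-count filter only through treated libraries. Such genes could only be called higher, and they are among the 14 that rose. The same limit holds for Csf3, Lcn2, Pdpn and S100a8, each under the level of the filter in both Untreated libraries.

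Among NF-kB subunits and feedback genes 13 of 26 rose and 3 fell, all against each Untreated library, with a median of 0.46. Zc3h12a, an RNase that degrades cytokine mRNAs, had 71.4 and 65.9 CPM in SWNT/CpG and 17.2 and 18.6 CPM in Untreated (1.94 ± 0.09, adjusted p = 2.9e-06). Nfkbiz, a nuclear IkB protein, rose by 2.58 ± 0.16, and Irak3, a kinase-dead brake on TLR signalling, by 1.94 ± 0.12. Traf1 (1.56 ± 0.16), Socs3 (1.08 ± 0.12), which limits STAT3 signalling, and Zfp36 (0.64 ± 0.07), which destabilises Tnf mRNA, were raised to a lesser degree. Nfkbie (-1.08 ± 0.15), another IkB gene, fell. Relb (-0.61 ± 0.13) and Nfkb2 (-0.32 ± 0.08) of the alternative pathway also fell, but Relb was not called without SWNT/CpG replicate 1 (adjusted p = 0.0537) or 2 (0.0819), nor Nfkb2 without replicate 2 (0.125), which left 1 member of the list lower. Rela, the subunit that carries most canonical activity, had 107 and 97.8 CPM in SWNT/CpG against 116 and 91.1 CPM in Untreated and was not called, except as lower without Untreated replicate 2 (-0.19, adjusted p = 0.036).

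The receptor for CpG DNA and its partners were not called in the fit of all 10 libraries. Tlr9 had 18.0 and 20.0 CPM in SWNT/CpG and 16.5 and 15.9 CPM in Untreated (0.23 ± 0.10, adjusted p = 0.132), with a 95% interval of 0.00 to 0.45, and was not called, though after the GC correction it was, at 0.32 (adjusted p = 0.0343). Unc93b1 (290.5 and 269 CPM in SWNT/CpG against 291 and 281 CPM in Untreated, -0.03 ± 0.07) and Myd88 (81.7 and 88.8 CPM in SWNT/CpG against 115 and 85.2 CPM in Untreated, -0.23 ± 0.13) were not called either, but without Untreated replicate 2 Myd88 was lower (-0.43, adjusted p = 0.000416). Of 33 tested Toll-like receptor and signalling genes 10 rose and 7 fell, with a median of 0.05, and 9 and 7 held against each Untreated library. Tlr1 (1.00 ± 0.19) and Slc15a3 (1.89 ± 0.14), an endolysosomal peptide transporter, rose. Tlr2, the receptor for bacterial lipoproteins, fell to 105 and 110.0 CPM in SWNT/CpG against 183 and 179.8 CPM in Untreated (-0.75 ± 0.06, adjusted p = 5.13e-05). Lgmn, an asparaginyl endopeptidase that cuts TLR9 in endosomes, fell by 0.91 log2 units, while the lysosomal protease gene Ctsl rose (0.79 ± 0.07). The number lower was 4 without SWNT/CpG replicate 2 and 13 without Untreated replicate 1.

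Most tested interferon-stimulated genes rose. Of 44 tested 39 rose and 0 fell, 31 of them against each Untreated library, and the median was 1.40. Without SWNT/CpG replicate 1 or 2, or Untreated replicate 1 or 2, the number called was 29, 32, 32 and 40. Rsad2, which encodes the antiviral enzyme viperin, had 48.1 and 28.8 CPM in SWNT/CpG and 3.99 and 4.84 CPM in Untreated (3.11 ± 0.26, adjusted p = 9.18e-05). Isg15, a ubiquitin-like modifier, had 9.77 and 8.40 CPM in SWNT/CpG against 1.83 and 1.95 CPM in Untreated (2.26 ± 0.18, adjusted p = 3.01e-05). Cmpk2 (2.19 ± 0.21), the mitochondrial nucleotide kinase encoded beside Rsad2, Oasl1 (1.83 ± 0.15), Trim30a (1.5 ± 0.14) and Ifitm6 (1.02 ± 0.09) rose as well. Of these 6 genes, Rsad2 had the widest gap between SWNT/CpG replicates. Trim30a and Ifi202b, which is described next, belong to families of near-identical genes, so their counts are uncertain. Irf7, the factor that amplifies interferon production, had 38.4 and 44.7 CPM in SWNT/CpG against 7.53 and 8.74 CPM in Untreated (2.35 ± 0.36, adjusted p = 0.00218), though without Untreated replicate 1 its adjusted p was 0.0572. Irf1, an NF-kB and interferon gamma target, was not called (18.8 and 16 CPM in SWNT/CpG against 21.9 and 21.4 CPM in Untreated).

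Sensors of cytosolic nucleic acids were next. Of 20 tested sensor and inflammasome genes 12 rose and 1 fell, 9 and 1 against each Untreated library, with a median of 0.51. That count was 5 higher without SWNT/CpG replicate 1. Ifih1, which encodes the RNA sensor MDA5, had 46.5 and 39.6 CPM in SWNT/CpG against 9.87 and 14.3 CPM in Untreated (1.83 ± 0.18, adjusted p = 0.000147). The DNA-binding family members Ifi202b (3.01 ± 0.35) and Ifi204 (1.6 ± 0.29) and the Z-form nucleic acid sensor Zbp1 (2.39 ± 0.33) also rose. Ifi202b was among the 20 largest rises, at 30.6 and 24.0 CPM in SWNT/CpG against 1.94 and 4.74 CPM in Untreated, and its Untreated libraries differed by over 2-fold. Dnase2a, the lysosomal nuclease that digests engulfed DNA, fell to 135 and 131 CPM in SWNT/CpG, against 192 and 184 CPM in Untreated (-0.50 ± 0.07, adjusted p = 0.00094).

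The bases upstream of 4 raised genes, chosen because they hold the motifs for which each family is known, are printed here. Windows of 250 bases before the transcription start were read from RefSeq (GRCm38.p6) on the gene's strand. They were searched on both strands for a kB motif, GGGANNNNCC, and for an interferon response element, GAAANNGAAA. The first 2 windows, of an inflammatory chemokine and an inflammatory enzyme gene, carry the kB motif in capitals, at chr5:90903649-90903898 (plus strand) and chr14:103046762-103047011 (plus strand, RefSeq name Acod1). The other two, of interferon-stimulated genes, carry the response element in capitals, at chr4:156200819-156201068 and chr12:26456453-26456702 (both minus strand).
Cxcl2: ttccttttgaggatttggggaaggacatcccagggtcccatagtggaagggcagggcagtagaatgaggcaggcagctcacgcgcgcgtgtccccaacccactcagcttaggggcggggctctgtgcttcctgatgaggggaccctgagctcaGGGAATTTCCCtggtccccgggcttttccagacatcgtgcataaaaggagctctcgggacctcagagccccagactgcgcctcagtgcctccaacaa
Irg1: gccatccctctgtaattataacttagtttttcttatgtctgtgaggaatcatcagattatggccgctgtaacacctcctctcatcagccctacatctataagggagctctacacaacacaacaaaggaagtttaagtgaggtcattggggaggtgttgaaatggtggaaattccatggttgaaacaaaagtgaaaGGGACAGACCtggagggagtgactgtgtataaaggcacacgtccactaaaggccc
Isg15: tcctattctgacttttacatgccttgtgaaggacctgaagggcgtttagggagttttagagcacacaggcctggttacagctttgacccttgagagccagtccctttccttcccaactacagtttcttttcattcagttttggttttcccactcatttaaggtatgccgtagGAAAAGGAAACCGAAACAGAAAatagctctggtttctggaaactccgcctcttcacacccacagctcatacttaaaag
Rsad2: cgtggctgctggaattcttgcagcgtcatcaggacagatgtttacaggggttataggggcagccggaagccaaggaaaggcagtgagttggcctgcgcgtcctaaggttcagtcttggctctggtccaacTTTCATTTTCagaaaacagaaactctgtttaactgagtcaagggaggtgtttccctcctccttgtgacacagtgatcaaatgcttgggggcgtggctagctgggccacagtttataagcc
In Rsad2 the match lies on the opposite strand. In Cxcl2 the capitals are 2 overlapping matches, one per strand, and in Isg15 they are 3 overlapping matches in a row. The kB letters were in 17.6% of all 32851 RefSeq windows. The shares of genes that follow count a match in any window of a gene, so they are not on the scale of shares of windows. By gene, the kB letters were in 25.9% of tested genes with a window. They were in 6 of the 15 raised chemokine and cytokine genes with a window (40%), in 23.5% of raised interferon-stimulated genes, in 27.9% of all raised genes and in 27% of all lowered genes. The response element was in 2.98% of all windows. By gene, it was in 3.2% of tested genes with a window, in 6.07% of all raised genes and in 3.24% of all lowered genes. It was in 2 of the same 15 chemokine and cytokine genes (13.3%) and in 16 of the 34 raised interferon-stimulated genes with a window (47.1%). These are counts of letters and do not show that a factor was bound.

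Inflammatory effector enzymes changed in part, with 11 of 27 higher and 3 lower, 10 and 3 against each Untreated library, and a median of 0.30. Irg1, the enzyme that makes itaconate, had 743 and 528 CPM in SWNT/CpG and 47.2 and 54.3 CPM in Untreated (3.65 ± 0.22, adjusted p = 1.8e-05). Ptgs2, the inducible cyclooxygenase, had 527 and 416 CPM in SWNT/CpG against 119 and 148 CPM in Untreated (1.82 ± 0.14), and Ptges, which makes prostaglandin E2 from its product, rose by 1.75 ± 0.13. Ptgs1, the constitutive cyclooxygenase, fell (-0.72 ± 0.14), a call lost without SWNT/CpG replicate 1 (adjusted p = 0.0581). Ncf1, a cytosolic subunit of the phagocyte NADPH oxidase, fell to 421 and 415 CPM in SWNT/CpG against 578 and 570.3 CPM in Untreated (-0.46 ± 0.07). The lysozyme gene Lyz2 was not called (929.7 and 894 CPM in SWNT/CpG against 982 and 856 CPM in Untreated).

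**Figure D2:**
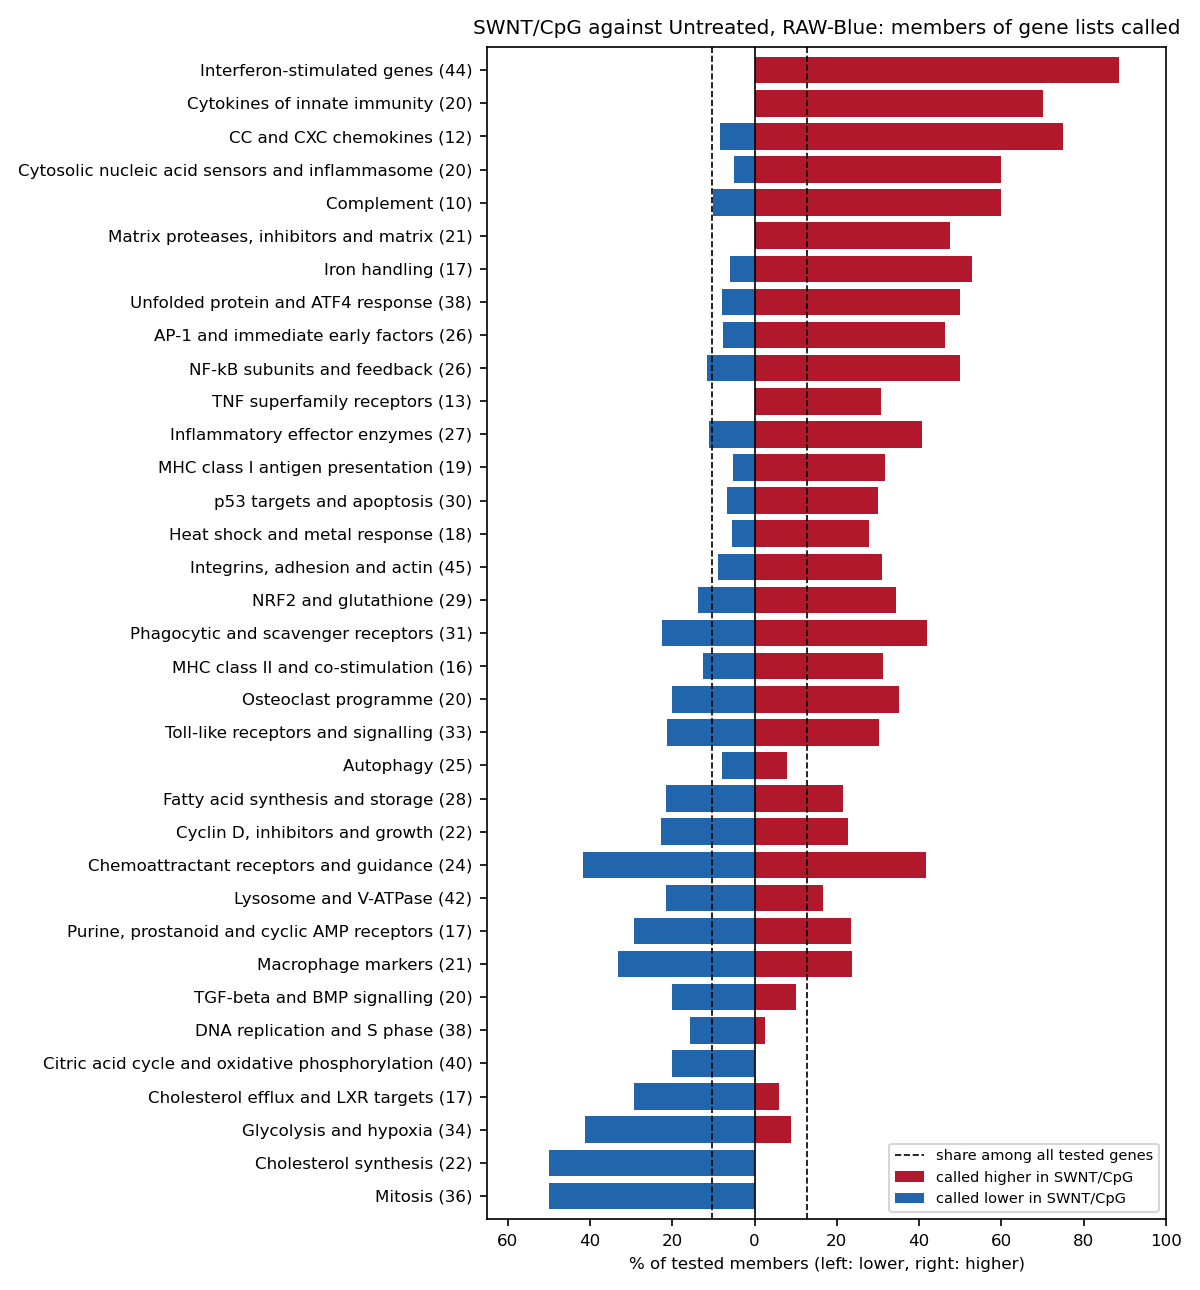
Share of the tested members of the gene lists that were called higher (right, red) or lower (left, blue) in SWNT/CpG than in Untreated cells, with the number tested in brackets; dashed lines mark the shares of all tested genes, 12.8% higher and 10.4% lower. Marker lists of other cell types are not drawn, and the lists drawn run down the page by the share higher minus the share lower: interferon-stimulated genes, cytokines and chemokines come first with 88.6%, 70% and 75% higher, and cholesterol synthesis and mitosis come last with 50% lower each.

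Antigen presentation changed in part. Of 16 tested MHC class II and co-stimulation genes 5 rose and 2 fell, all against each Untreated library. Cd40, the co-stimulatory receptor, had 4.91 and 3.30 CPM in SWNT/CpG and 1.14 and 0.947 CPM in Untreated (1.96 ± 0.28, adjusted p = 0.00101). The inhibitory ligand gene Cd274, which encodes PD-L1, had 22.4 and 15.7 CPM in SWNT/CpG against 6.33 and 10.2 CPM in Untreated (1.19 ± 0.22), and Cd80 (0.62 ± 0.12) and the SLAM family gene Slamf9 (2.19 ± 0.25) rose. Cd83, a marker of activated dendritic cells, went the other way, at 5.09 and 5.80 CPM in SWNT/CpG against 14.8 and 17.4 CPM in Untreated (-1.56 ± 0.17, adjusted p = 0.000191). Cd40 and Slamf9 were scarce transcripts even after SWNT/CpG. Of 19 tested MHC class I genes 6 rose and 1 fell, with small changes and a median of 0.14. The shares were 31.6% and 5.26%, beside 12.8% and 10.4% of all tested genes. Nlrc5, the transactivator of class I genes, had 68.5 and 69.9 CPM in SWNT/CpG against 34.1 and 39.3 CPM in Untreated (0.92 ± 0.10). Without SWNT/CpG replicate 1 or 2, 2 and 3 class I genes were called higher and 0 lower, and without Untreated replicate 1 or 2, 2 and 3 were lower.

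Phagocytic and scavenger receptor genes split in both directions, with 13 of 31 higher and 7 lower, 13 and 6 against each Untreated library. Clec4d (1.24 ± 0.10) and Clec4e (0.95 ± 0.11), C-type lectins for fungal and mycobacterial lipids, rose together with Fcgr2b (1.49 ± 0.16), the inhibitory IgG receptor. Msr1, a class A scavenger receptor, had 349.7 and 313 CPM in SWNT/CpG and 117 and 161 CPM in Untreated (1.25 ± 0.14, adjusted p = 0.000214). Itgam, the CD11b integrin chain of complement receptor 3, had 1059 and 1012 CPM in SWNT/CpG against 439 and 527 CPM in Untreated (1.10 ± 0.12). Pilra, an inhibitory receptor for sialylated ligands, was among the 20 largest rises (31.8 and 25.5 CPM in SWNT/CpG against 2.57 and 2.84 CPM in Untreated, 3.40 ± 0.28). Receptors that take up apoptotic cells and lipoproteins were among the falls. Trem2 fell to 129 and 119.7 CPM in SWNT/CpG against 240.0 and 205 CPM in Untreated (-0.84 ± 0.10), Lrp1 to 1707 and 1626 CPM in SWNT/CpG against 2319 and 2357 CPM in Untreated (-0.49 ± 0.07), and Axl by 0.76 log2 units.

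Receptors for migration cues changed in both directions, with 10 of 24 higher and 10 lower, 8 and 10 against each Untreated library. The complement anaphylatoxin receptors rose, C5ar1 to 111 and 103 CPM in SWNT/CpG against 30.0 and 34.8 CPM in Untreated (1.73 ± 0.15) and C3ar1 to 252 and 222 CPM in SWNT/CpG against 115 and 123 CPM in Untreated (1.00 ± 0.09). Ccr1, a receptor for CCL3 and CCL5, had 10.9 and 9.55 CPM in SWNT/CpG against 3.02 and 3.32 CPM in Untreated (1.68 ± 0.14, adjusted p = 4.01e-05). Nrp1, a co-receptor for semaphorins and VEGF, rose by 0.85 ± 0.14. Among the falls, Cxcr4, the receptor for CXCL12, had 4.91 and 3.30 CPM in SWNT/CpG and 22.4 and 23.5 CPM in Untreated (-2.50 ± 0.18, adjusted p = 1.8e-05), and S1pr1, a sphingosine 1-phosphate receptor, 23.3 and 17.4 CPM in SWNT/CpG against 52.6 and 52.9 CPM in Untreated (-1.38 ± 0.13). Cx3cr1, the fractalkine receptor, had 202 and 215 CPM in SWNT/CpG against 404 and 418 CPM in Untreated (-0.98 ± 0.07, adjusted p = 2.1e-05), and Gpr183, an oxysterol receptor from another list, 42.0 and 44.3 CPM in SWNT/CpG against 106 and 109 CPM in Untreated (-1.32 ± 0.07). In each of these 4 the Untreated replicates lay close together, well above both SWNT/CpG libraries. The number higher was 6 without SWNT/CpG replicate 1.

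Protease and matrix genes rose where they changed. Of 21 tested matrix, protease and inhibitor genes 10 rose and 0 fell, 8 against each Untreated library, with a median of 0.63. Plaur, the urokinase receptor, had 152 and 142 CPM in SWNT/CpG and 49.5 and 37.3 CPM in Untreated (1.76 ± 0.14, adjusted p = 3.86e-05), and its ligand gene Plau rose by 0.63 ± 0.11. Adam8, a surface metalloprotease, had 797 and 722 CPM in SWNT/CpG against 412 and 369.9 CPM in Untreated (0.96 ± 0.08), and the growth factor gene Hbegf rose by 1.81 ± 0.21. Of 45 tested integrin, adhesion and actin genes 14 rose and 4 fell. Itgal, the LFA-1 chain, had 51.0 and 44.1 CPM in SWNT/CpG against 19.6 and 19.1 CPM in Untreated (1.30 ± 0.18), whereas Itga4 of VLA-4 had 521 and 595 CPM in SWNT/CpG against 999.8 and 1889.9 CPM in Untreated (-1.37 ± 0.24). Itga4 fell against either Untreated library, though those libraries differed nearly 2-fold from each other. The unconventional myosin Myo1f (-1.24 ± 0.11) and Itgb5 (-0.96 ± 0.11) fell, and the ERM protein gene Msn rose (0.55 ± 0.07). The integrin and actin count shifted when 1 library was left out, as did the count over all tested genes.

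Mitosis genes fell where they changed. Of 36 tested mitosis genes 18 fell and 0 rose, 17 against each Untreated library, and the median was -0.27. Ccnb2, a mitotic cyclin, had 88.7 and 95.9 CPM in SWNT/CpG and 156 and 148 CPM in Untreated (-0.72 ± 0.08, adjusted p = 0.000176). Ccna2 (-0.55 ± 0.09), Cenpa (-0.57 ± 0.08), the centromeric histone gene, Foxm1 (-0.50 ± 0.08), the factor that drives mitotic genes, and Aurkb (-0.45 ± 0.08) fell by similar amounts. These are falls of under 2-fold. Leaving out SWNT/CpG replicate 1 or 2 left 7 and 12 lower, and leaving out Untreated replicate 1 gave 28 lower. Without Untreated replicate 2 the count was 20 lower and 9 higher. Mki67, the proliferation marker, had 1144 and 1275 CPM in SWNT/CpG and 856 and 1742 CPM in Untreated. It was not called, and the SWNT/CpG libraries lay between the Untreated ones. The share of S phase genes called lower was 15.8%, near the 10.4% of all tested genes, and 2.63% were higher, beside 12.8%. Of 38 tested S phase genes 6 fell and 1 rose, with 0 lower without SWNT/CpG replicate 1 and 22 lower without Untreated replicate 2.

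Growth regulators moved individually. Myc had 14.3 and 12.3 CPM in SWNT/CpG and 1.37 and 1.68 CPM in Untreated (3.11 ± 0.16, adjusted p = 3.86e-06), one of the 20 largest rises. Gadd45a, a stress-induced growth arrest gene, rose by 2.63 ± 0.21, and the cyclin gene Ccnd1 had 1532 and 1493 CPM in SWNT/CpG against 1132 and 1043 CPM in Untreated (0.48 ± 0.07). The kinase inhibitor gene Cdkn2c (-0.65 ± 0.09) and the MYC antagonist gene Mxd4 (-0.99 ± 0.17) fell. Bcl2l1, which encodes the survival protein BCL-XL, had 416 and 400.2 CPM in SWNT/CpG against 219 and 190.4 CPM in Untreated (1.00 ± 0.08, adjusted p = 4.63e-05). The necroptosis effector gene Mlkl rose as well (0.95 ± 0.12). Among 26 AP-1 and immediate early genes 12 rose and 2 fell, with Fosl1 at 57.7 and 53.1 CPM in SWNT/CpG against 17.1 and 12.1 CPM in Untreated (1.93 ± 0.13) and the early growth response genes Egr2 (-1.10 ± 0.19) and Egr3 (-1.31 ± 0.20) lower. Of the AP-1 genes, 6 were higher without SWNT/CpG replicate 1.

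Cholesterol synthesis genes fell where they changed. Of 22 tested cholesterol synthesis genes 11 fell and 0 rose, 10 against each Untreated library, with a median of -0.33. Sqle, squalene epoxidase, had 332 and 336 CPM in SWNT/CpG and 467 and 416 CPM in Untreated (-0.40 ± 0.08, adjusted p = 0.00425). The falls were small, and fewer members were called without either SWNT/CpG replicate, as was so for all tested genes. Fabp4, a fatty acid carrier, rose to 41.6 and 37.3 CPM in SWNT/CpG against 5.88 and 6.21 CPM in Untreated (2.70 ± 0.15, adjusted p = 5.83e-06). Cpt1a, which admits fatty acids to mitochondria for oxidation, fell to 30.9 and 31.2 CPM in SWNT/CpG against 88.3 and 71.5 CPM in Untreated (-1.36 ± 0.18). The lipid transfer protein gene Pltp (-0.95 ± 0.08) and the lysosomal lipase gene Lipa (-0.75 ± 0.07) fell, both against each Untreated library.

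Among 34 glycolysis and hypoxia genes 14 fell and 3 rose, 12 and 2 against each Untreated library, with a median of -0.19. Hypoxia-responsive members were among the falls, with Ankrd37 at 10.5 and 10.1 CPM in SWNT/CpG against 24.4 and 27.6 CPM in Untreated (-1.33 ± 0.12), Adm, the adrenomedullin gene, at 50.8 and 45.9 CPM in SWNT/CpG against 86.6 and 97.6 CPM in Untreated (-0.93 ± 0.09), and the aldolase gene Aldoc lower by 0.62 log2 units. Hk3, a hexokinase of myeloid cells, rose to 454 and 349.6 CPM in SWNT/CpG against 224 and 193 CPM in Untreated (0.95 ± 0.12). Leaving out SWNT/CpG replicate 1 or 2 left 5 lower each time. Of 40 genes of the citric acid cycle and respiratory chain 8 fell (20%, beside 10.4% of all tested genes) and 0 rose. Mdh1 (-0.50 ± 0.08) and Idh2 (-0.53 ± 0.09) were among those that fell. That count was 2 and 3 without SWNT/CpG replicate 1 or 2, and 7 and 35 without Untreated replicate 1 or 2.

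The stress response lists held more rises than falls. Of 38 tested unfolded protein and ATF4 response genes 19 rose and 3 fell, 18 and 3 against each Untreated library, with a median of 0.32. Leaving out any 1 of the 4 libraries left 14 to 21 higher, while the number lower was 1 without either SWNT/CpG replicate, 5 without Untreated replicate 1 and 10 without Untreated replicate 2. Atf4, the central factor, had 587 and 525 CPM in SWNT/CpG and 345 and 290.1 CPM in Untreated (0.81 ± 0.10), and its target Asns, asparagine synthetase, 371 and 319 CPM in SWNT/CpG against 176 and 148 CPM in Untreated (1.09 ± 0.12). Trib3 (1.83 ± 0.18), Atf5 (1.66 ± 0.13) and Ddit3, which encodes CHOP (1.24 ± 0.15), rose further. Slc7a11, the cystine importer, had 216 and 163 CPM in SWNT/CpG against 39.7 and 59.6 CPM in Untreated (1.93 ± 0.19, adjusted p = 0.000207). Cth, the enzyme that makes cysteine from cystathionine, was among the 20 largest rises, with 86.2 and 64.9 CPM in SWNT/CpG against 5.31 and 6.21 CPM in Untreated (3.71 ± 0.27, adjusted p = 4.21e-05). Of 29 NRF2 and glutathione genes 10 rose and 4 fell, with 1 and 2 lower without SWNT/CpG replicate 1 or 2 and 9 without Untreated replicate 2. Srxn1 (0.83 ± 0.12) and Prdx5 (0.81 ± 0.12), which handle peroxides, rose, and the glutathione peroxidase gene Gpx1 fell to 311 and 305 CPM in SWNT/CpG against 652 and 518 CPM in Untreated (-0.92 ± 0.10).

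Lysosomal genes were mixed, with 7 of 42 higher and 9 lower and a median of 0.00. These are shares of 16.7% and 21.4%, beside 12.8% and 10.4% of all tested genes. The acid hydrolase gene Man2b1 (95.8 and 96.6 CPM in SWNT/CpG against 200.3 and 183 CPM in Untreated, -0.99 ± 0.07) fell, as did Tfeb, the factor that drives lysosomal genes (-1.07 ± 0.11). The V-ATPase subunit gene Atp6v0a1 rose (0.63 ± 0.10). Leaving out SWNT/CpG replicate 1 or 2 left 4 higher each time and 5 and 4 lower. Without Untreated replicate 1, 14 were higher, and without Untreated replicate 2, 16 were lower. Of 25 autophagy genes 2 rose and 2 fell (8% each, under the shares of all tested genes), with Sqstm1, the receptor p62 and an NRF2 target, at 1165 and 874 CPM in SWNT/CpG against 553 and 454 CPM in Untreated (1.02 ± 0.13). Of the autophagy genes, 1 was higher and 0 lower without either SWNT/CpG replicate, 4 and 2 without Untreated replicate 1, and 6 and 4 without Untreated replicate 2. Of 17 iron genes 9 rose and 1 fell, 7 and 1 against each Untreated library. Slc11a1, the phagosomal metal transporter NRAMP1, had 178 and 165 CPM in SWNT/CpG against 63.9 and 55.2 CPM in Untreated (1.53 ± 0.09, adjusted p = 5.83e-06). Tfrc, the transferrin receptor, rose by 0.58 ± 0.11. Of the iron genes, 4 were higher without SWNT/CpG replicate 1.

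The largest falls included enzymes and regulators outside these pathways. St6gal1, the sialyltransferase that caps N-glycans with sialic acid, had 4.57 and 3.45 CPM in SWNT/CpG and 32.5 and 35.3 CPM in Untreated (-3.09 ± 0.13, adjusted p = 1.18e-06). Cytip, a cytohesin-binding regulator of leukocyte adhesion, had 1.79 and 1.85 CPM in SWNT/CpG against 14.1 and 15.9 CPM in Untreated (-3.04 ± 0.16), and Cbfa2t3, a transcriptional corepressor, 2.37 and 2.10 CPM in SWNT/CpG against 12.7 and 14.4 CPM in Untreated (-2.60 ± 0.16). Both libraries of each group lay close together in all of them. Pik3ip1, a negative regulator of PI3 kinase, fell by 2.20 log2 units, and Ephx1, the microsomal epoxide hydrolase, by 1.95. Nos1, the neuronal nitric oxide synthase, was near 1 CPM in SWNT/CpG and fell (1.39 and 0.700 CPM in SWNT/CpG against 3.65 and 4.05 CPM in Untreated, -1.91 ± 0.29), in contrast to Nos2. Beyond immune genes, the largest rises included Slc6a4, the serotonin transporter (23.9 and 28.0 CPM in SWNT/CpG against 1.88 and 1.47 CPM in Untreated, 3.95 ± 0.16), and Pdpn, podoplanin (7.51 and 6.90 CPM in SWNT/CpG against 0.456 and 0.474 CPM in Untreated, 3.93 ± 0.24). Aqp9, an aquaglyceroporin (3.39 ± 0.35), Upp1, uridine phosphorylase (3.27 ± 0.40), and Cish, a STAT5-induced suppressor of cytokine signalling (3.7 ± 0.63), were in the same group.

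**Figure D3:**
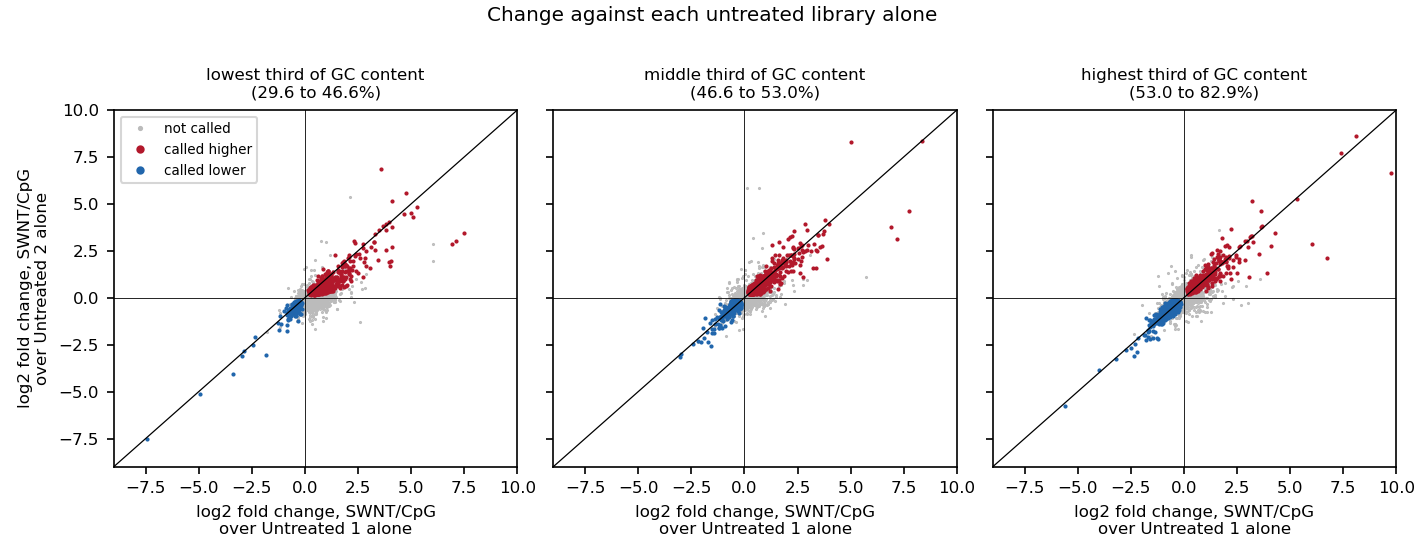
Log2 fold change of SWNT/CpG over Untreated replicate 1 alone (x axis) and over Untreated replicate 2 alone (y axis) for each tested gene, split into 3 equal bins of transcript GC content; red and blue points are genes called higher and lower in the fit of both libraries, grey points were not called, and the diagonal marks equal values. In the bin of lowest GC content the cloud of uncalled genes lies below the diagonal and in that of highest GC content above it, while the larger changes follow it.

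Calls were unevenly spread over GC content. With the genes in 3 equal bins, 573 rose and 151 fell at the lowest GC content (29.63 to 46.58%), 498 and 436 in the middle, and 399 and 611 at the highest (52.98 to 82.89%). The median log2 fold change of the lowest bin was 0.31 against Untreated replicate 1 alone and 0.00 against replicate 2 alone, and that of the highest bin was -0.18 and 0.00. Across genes, the Spearman correlation of the log2 fold change with GC content was -0.276 against both libraries, -0.43 against replicate 1 and 0.0174 against replicate 2. Genes differed in how far the choice of baseline moved them. The log2 fold change of Nos2 was 5.34 and 5.25 against Untreated replicates 1 and 2, that of Tnf 2.18 and 2.26, and that of Cxcr4 -2.46 and -2.53. That of Ifi202b was 3.81 and 2.53, that of Ccl7 4.75 and 5.60, and that of Itga4 -0.84 and -1.76. Atrx, a chromatin remodeller gene, changed sign. It had 223 and 224 CPM in SWNT/CpG and 109.7 and 291 CPM in Untreated and was not called, with a log2 fold change of 1.03 against replicate 1 and -0.38 against replicate 2.

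**Figure D4:**
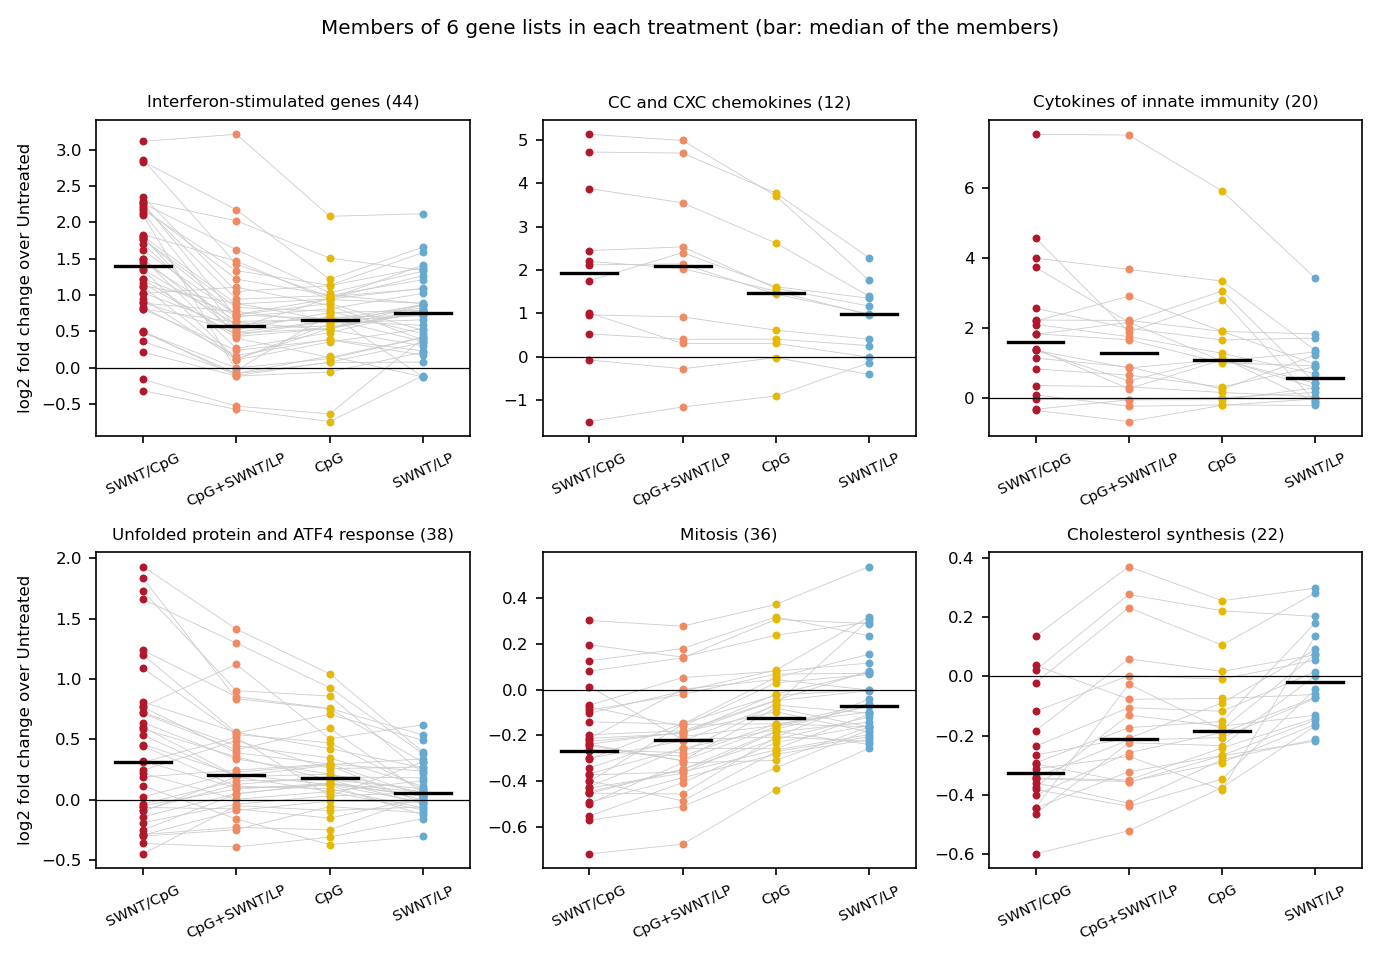
Log2 fold change over Untreated of the tested members of 6 gene lists in the 4 treatments, SWNT/CpG leftmost; grey lines join the values of a gene, black bars are medians over the members, and all 4 treatments share the same 2 Untreated libraries. Interferon-stimulated genes have a median of 1.40 in SWNT/CpG, and 0.57, 0.65 and 0.76 in CpG+SWNT/LP, CpG and SWNT/LP. Medians of the other treatments were not computed against either Untreated library alone.

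The other treatments place these values, at the same 10 µg/mL of each shared ingredient. Against the same Untreated libraries, 1164 genes rose (10.1%) and 1168 fell (10.1%) in CpG+SWNT/LP, 596 (5.18%) and 645 (5.6%) in CpG, and 50 (0.434%) and 5 (0.0434%) in SWNT/LP. For these other treatments, no fit against either Untreated library alone was made. Tested directly in the same fit, SWNT/CpG differed from CpG in 77 genes higher (0.669%) and 20 lower (0.174%), 0.842% together, from CpG+SWNT/LP in 54 (0.469%) and 41 (0.356%), 0.825% together, and from SWNT/LP in 725 (6.3%) and 461 (4%), 10.3% together. The first 2 of these counts rest on all libraries. Without SWNT/CpG replicate 1 or 2 or CpG replicate 1 or 2, the calls against CpG numbered 0, 42, 0 and 0. Without SWNT/CpG replicate 1 or 2 or CpG+SWNT/LP replicate 1 or 2, those against CpG+SWNT/LP numbered 2, 8, 0 and 15. With only the compared groups in the fit they numbered 949 and 852. Against SWNT/LP the calls were 441 and 621 without SWNT/CpG replicate 1 or 2 and 391 and 425 without SWNT/LP replicate 1 or 2, of 1186 in all. Single genes named next as different from either treatment are thus called in the fit of all 10 libraries and not in every smaller one.

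Interferon-stimulated genes were higher in SWNT/CpG than in free CpG by a median log2 difference of 0.79 over 44 members, and than in CpG+SWNT/LP by 0.73, where the medians of all tested genes were 0.00 and 0.00. Of these members 6 were called higher and 0 lower against CpG, beside 0.669% and 0.174% of all tested genes. Against CpG+SWNT/LP 5 were called higher and 0 lower, beside 0.469% and 0.356%. Trim30a had 40.2 and 37.9 CPM in SWNT/CpG, 17.6 and 21.2 CPM in CpG+SWNT/LP and 20.6 and 22.6 CPM in CpG, a log2 difference of 1.01 ± 0.13 from the first (adjusted p = 0.0233) and of 0.86 ± 0.13 from the second (adjusted p = 0.0307). Cmpk2 had 11.3 and 8.35 CPM in SWNT/CpG, 4.69 and 5.26 CPM in CpG+SWNT/LP and 3.91 and 4.65 CPM in CpG, and was called against both. Rsad2 had 48.1 and 28.8 CPM in SWNT/CpG, 41.5 and 40.5 CPM in CpG+SWNT/LP and 20.9 and 16.6 CPM in CpG. Its log2 difference was -0.10 from CpG+SWNT/LP (95% interval -0.58 to 0.39). From CpG it was 1.03 (0.52 to 1.54), which missed the threshold (adjusted p = 0.0804). Irf7 had 38.4 and 44.7 CPM in SWNT/CpG, 11.5 and 22 CPM in CpG+SWNT/LP, 12.3 and 23.3 CPM in CpG and 17.6 and 24.8 CPM in SWNT/LP, with wide replicate gaps in the 3 other treatments. Its log2 differences from CpG (1.22, adjusted p = 0.147) and from CpG+SWNT/LP (1.30, adjusted p = 0.124) were not called.

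Several chemokines were higher than in free CpG, and none was called against CpG+SWNT/LP. Of 12 members 5 were called higher than in CpG and 0 than in CpG+SWNT/LP, beside 0.669% and 0.469% of all tested genes. Their median log2 differences were 0.68 and 0.09. Ccl2 had 246 and 192 CPM in SWNT/CpG, 159 and 189 CPM in CpG+SWNT/LP and 88.0 and 95.4 CPM in CpG. Its log2 difference was 1.25 ± 0.12 from CpG (adjusted p = 0.0127) and 0.33 ± 0.12 from CpG+SWNT/LP (adjusted p = 0.252, 95% interval 0.06 to 0.60). Csf3 had 90.6 and 64.1 CPM in SWNT/CpG, 64.9 and 87.1 CPM in CpG+SWNT/LP, 22.5 and 27.8 CPM in CpG and 4.63 and 4.25 CPM in SWNT/LP. The difference of Csf3 from CpG was 1.62 ± 0.19 (adjusted p = 0.0182) and from CpG+SWNT/LP 0.02 ± 0.18 (95% interval -0.39 to 0.44). Pdpn showed the same order, with 7.51 and 6.90 CPM in SWNT/CpG, 6.49 and 7.14 CPM in CpG+SWNT/LP and 2.40 and 2.22 CPM in CpG. Tnf had 630.4 and 556 CPM in SWNT/CpG, 582 and 596 CPM in CpG+SWNT/LP and 478 and 471 CPM in CpG, and Nos2 had 157 and 144 CPM in SWNT/CpG, 117 and 163 CPM in CpG+SWNT/LP and 109.8 and 131 CPM in CpG. Their log2 differences from CpG were 0.32 ± 0.08 (95% interval 0.15 to 0.50) and 0.32 ± 0.14 (0.00 to 0.64), neither called.

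A smaller set stood apart from both other CpG treatments. Lcn2 had 84.9 and 44.2 CPM in SWNT/CpG, 8.35 and 11.9 CPM in CpG+SWNT/LP, 5.19 and 10.9 CPM in CpG and 0.591 and 0.912 CPM in SWNT/LP. Its log2 difference was 2.66 ± 0.37 from CpG+SWNT/LP (adjusted p = 0.026) and 3.00 ± 0.38 from CpG (adjusted p = 0.0233). Lix1, Wfdc17, a whey acidic protein family gene, and Cth were likewise higher than in either, with log2 differences from CpG+SWNT/LP of 2.19 ± 0.35, 2.26 ± 0.35 and 1.31 ± 0.23. Irak3 (0.82 ± 0.12), C5ar1 (1.09 ± 0.15), Nrp1 (0.90 ± 0.14) and Trib3 (1.00 ± 0.17) exceeded CpG+SWNT/LP and were called against CpG too. Nrp1 rose in SWNT/CpG, at 51.0 and 37.7 CPM, while it stood at 25 and 22.4 CPM in CpG+SWNT/LP, 23.9 and 26.3 CPM in CpG and 24.1 and 24.9 CPM in Untreated.

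Pmepa1, Nfatc1 and Acp5 were lower in SWNT/CpG than in both other CpG treatments. Pmepa1, a TGF-beta-induced inhibitor of SMAD signalling, had 0.405 and 0.900 CPM in SWNT/CpG, 6.32 and 5.21 CPM in CpG+SWNT/LP, 4.30 and 3.66 CPM in CpG, 5.17 and 5.47 CPM in SWNT/LP and 4.51 and 4.68 CPM in Untreated. Its log2 difference was -3.09 ± 0.28 from CpG+SWNT/LP (adjusted p = 0.00722), -2.56 ± 0.29 from CpG (adjusted p = 0.0127) and -2.77 ± 0.28 from Untreated (adjusted p = 0.000139). All 8 libraries outside SWNT/CpG lay between 3.66 and 6.32 CPM. Of 20 tested TGF-beta and BMP signalling genes, 1 was called lower and 0 higher against CpG, and likewise against CpG+SWNT/LP. The receptor gene Tgfbr2 differed by -0.11 from CpG and 0.02 from CpG+SWNT/LP, neither called. Id1, a target of BMP signals, differed by 0.48 and 0.58, neither called. Against Untreated, Id1 was higher (1.84 ± 0.15) and Tgfbr2 lower (-0.56 ± 0.07). Nfatc1, the master factor of osteoclasts, which RAW 264.7 cells can become, had 102 and 110.4 CPM in SWNT/CpG, 177 and 166 CPM in CpG+SWNT/LP, 147 and 142 CPM in CpG and 157 and 148 CPM in Untreated. Acp5, the osteoclast acid phosphatase gene, was higher than in Untreated (0.93 ± 0.12) and lower than in CpG+SWNT/LP (-1.05 ± 0.11, adjusted p = 0.00917) and in CpG (-0.64 ± 0.12, adjusted p = 0.0397). Of 20 osteoclast genes 4 were lower and 0 higher than in CpG+SWNT/LP, beside 0.356% and 0.469% of all tested genes, with a median difference of -0.22. Cxcr4 was lower than in CpG+SWNT/LP (-1.70 ± 0.18, adjusted p = 0.00917) but was not called against CpG (-0.89 ± 0.20, 95% interval -1.33 to -0.46), and Cx3cr1 was lower than in CpG (-0.69 ± 0.07, adjusted p = 0.0127) but was not called against CpG+SWNT/LP (-0.23 ± 0.07). Slc6a4, though raised over Untreated, was lower than in both other CpG groups (23.9 and 28.0 CPM in SWNT/CpG against 43.4 and 49.5 CPM in CpG+SWNT/LP and 40.4 and 44.8 CPM in CpG).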

How the data were processed

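PolyA RNA of the RAW-Blue libraries was made into stranded libraries and sequenced, per the labels' protocols. The authors deposited raw counts per gene and RPKM per gene; the submitters' processing notes name TopHat2 2.0.14, HTSeq 0.6.0 and mouse build mm9. For the gene annotation, the strand setting and read filters the notes used here give nothing, and overlapping or near-identical genes may share reads. The counts were used for all tests, and the deposited RPKM only to compare levels between genes.

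All 10 RAW-Blue libraries entered one edgeR 4.0.16 quasi-likelihood fit (R 4.3.3), with group as the only term, TMM scaling and the default low-count filter (minimum count 10), which kept 11514 of 21669 genes. P-values were adjusted by Benjamini-Hochberg over those genes, with a threshold of 0.05. Groups were taken from the labels. CPM were computed on the TMM-scaled library totals of the tested genes, and standard errors from fold changes divided by the root of F. Intervals for ratios of low counts are exact and cover counting error only. GC content came from the longest GENCODE M21 transcript of a gene (99.5% of tested genes matched).

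Alternatives were DESeq2 1.42.0, its size factors, no filter, an adjusted p threshold of 0.01, the compared groups alone, a replicate block, GC offsets with and without the block, and each library left out. The 39 gene lists and the genes named were chosen with earlier results of these data known. The rule names the 20 largest rises and falls that held against each Untreated library with a mean of at least 1 log2 CPM, and up to 6 members per list and direction by adjusted p. It adds up to 3 abundant uncalled members per list, low-count members, a few control genes and genes that differ most between the Untreated libraries. Genes named for a difference between treatments alone were chosen after their values were seen. A few genes that the rule names are not reported here.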

Additional observations from a re-analysis of the deposited data

How the results depend on the processing

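Against Untreated, 2339 genes were called with DESeq2, 2672 with its size factors in edgeR, 2661 without the low-count filter and 3198 after GC offsets, beside 2673 in edgeR. The number was 907 (575 higher, 332 lower) when the fit held only these 4 libraries and 1380 (837 higher, 543 lower) at an adjusted p under 0.01. Leaving out 1 of the 4 libraries gave 1200 to 5924 calls, 724 to 3178 higher and 476 to 2746 lower. None of these fits called a gene in the opposite direction, and each kept 33.9% to 99.7% of the 2673. Deviations of same-numbered libraries correlated at -0.099 to 0.181 over the 10 pairs of groups and at -0.0213 between SWNT/CpG and Untreated, so the numbers were not taken to pair the samples. With the replicate number as a block 2548 genes were called, or 3144 with GC offsets too; this moved no comparison past 1.5 times (107 against CpG, 115 against CpG+SWNT/LP, 1150 against SWNT/LP). Calls against CpG numbered 245 with DESeq2, 240 without the filter and 949 with the compared groups only, and 0 to 42 with 1 library left out, beside 97. Calls against CpG+SWNT/LP numbered 245, 249 and 852 in the same fits and 0 to 15 with 1 library left out, beside 95, and those against SWNT/LP 3508 with the compared groups only and 391 to 621 with 1 library left out, beside 1186. The cause of these shifts was not tested. Of 146 called genes named above, all kept their direction in every fit and 131 kept their call; 12 lost it with the compared groups only. Some uncalled genes changed sign. Rela ranged between -0.19 without Untreated replicate 2 and 0.17 without Untreated replicate 1, was 0.05 without SWNT/CpG replicate 2, and was 0.091 and 0.092 after GC offsets without and with the block. Unc93b1 was -0.093 and 0.025 without SWNT/CpG replicate 1 or 2, and 0.0596 and 0.0605 after the GC offsets without and with the block. With Untreated replicate 1 or 2 left out, Lyz2 was 0.094 and -0.11 (0.019 without SWNT/CpG replicate 2), Myd88 0.0058 and -0.43 (adjusted p = 0.000416 for the second), Atrx -0.38 and 1.03, and Mki67 -0.52 and 0.50 (adjusted p = 0.000317 and 0.000455). With 2 libraries per group the fits cannot say whether SWNT/CpG replicates or Untreated replicates are the more typical, and genes under about 10 counts per library were mostly not tested.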

Other observations

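Complement genes mostly rose, and receptors for purines and prostanoids changed in both directions. Of 10 tested complement genes 6 rose and 1 fell, with a median log2 fold change of 0.67 and 5 or 6 higher without any 1 of the 4 libraries. C3, the component on which the complement pathways converge, had 24.9 and 25.4 CPM in SWNT/CpG and 12 and 11.4 CPM in Untreated (1.10 ± 0.21, adjusted p = 0.00514). Of 17 tested purine, prostanoid and cyclic AMP receptor genes 4 rose and 5 fell, and without SWNT/CpG replicate 2 the numbers were 2 and 1, with 2 lower without SWNT/CpG replicate 1. Hcar2, the receptor for niacin and ketone bodies, had 36.8 and 36.5 CPM in SWNT/CpG and 7.25 and 8.63 CPM in Untreated (2.20 ± 0.22, adjusted p = 0.000162). Ptgir, the prostacyclin receptor, had 83.0 and 74.5 CPM in SWNT/CpG and 27.4 and 26.6 CPM in Untreated (1.54 ± 0.10, adjusted p = 1.4e-05). Gpr183, described above, fell. In C3, Hcar2 and Ptgir the 2 groups did not overlap, which adds nothing to their calls.

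Siglech and S100a8 were scarce. Dendritic cell markers split, with 2 of 5 tested higher and 2 lower and a sum that was higher in SWNT/CpG, as given above. Siglech, a lectin of plasmacytoid dendritic cells and microglia, had 0 and 0 counts in SWNT/CpG libraries and 20 and 23 counts in Untreated libraries. Without a count in SWNT/CpG, Siglech passed the low-count filter only through other groups and could only be called lower. With SWNT/CpG set to a floor of 3 counts over the group, Siglech was 14.6-fold lower. The 95% upper limit of its ratio was 0.0877, from counting error only. S100a8, a calcium-binding protein abundant in neutrophils, had 1.27 and 1.45 CPM in SWNT/CpG and 0.114 and 0.105 CPM in Untreated (3.56 ± 0.64, adjusted p = 0.00325). Both are far below Csf1r, which stood above 1000 CPM in every library of the 2 groups.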
